A study of Homo sapiens with 4 samples.

Results

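Glycogen is the branched glucose polymer in which cells store sugar, and the transcripts of 9 genes that build it, break it down or regulate the balance were followed in U87 cells, a human glioblastoma line, treated with the small molecule YZ129. The 9 genes were chosen by symbol from the 19749 genes of the table, and all 9 were found and tested: PGM1, UGP2, GYS1, GBE1, PYGL, PYGB, PPP1R3B, PPP1R3C and PPP1R3D. Cells in DMEM with fetal bovine serum received 5 µM YZ129 for 24 h (n = 2 libraries) or the solvent DMSO alone (n = 2 libraries), and poly(A) RNA was sequenced. By the title of the series, YZ129 belongs to a search for inhibitors along HSP90, calcineurin and NFAT, where HSP90 is a chaperone and calcineurin the phosphatase that activates NFAT transcription factors.

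Synthesis of glycogen starts from glucose 6-phosphate. PGM1 turns it into glucose 1-phosphate, UGP2 couples that to UTP to give UDP-glucose, glycogen synthase (GYS1) adds the glucose to a growing chain, and the branching enzyme (GBE1) makes the branch points. Glycogen phosphorylase, as the liver form PYGL or the brain form PYGB, releases glucose 1-phosphate from the chain ends. PPP1R3B, PPP1R3C and PPP1R3D are targeting subunits that bring protein phosphatase 1 (PP1) to the glycogen particle, where it activates the synthase and inactivates phosphorylase. In several cell types glycogen genes, GYS1, GBE1 and PPP1R3C among them, are known to be induced by hypoxia-inducible factor.

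The authors' deposited table holds 1 comparison and no values per library, so each gene has 1 mean level, 1 log2 fold change and 1 standard error (SE). The mean level is a normalized count over 8 libraries. Of these, 2 moved the fold change up, 2 moved it down and 4 moved it to neither side. Only 4 samples are described, so the source of the other libraries is unknown. They enter every mean level given here, those of the markers included, and the groups of genes by level. The mean level is not divided by transcript length, so levels are not compared between genes. Neither the libraries behind each SE nor separate cultures are given in the sources used here, so the p-values may measure technical spread only.

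The table does not say which group is the numerator. Positive values were read as higher with YZ129, because in a list of 22 heat shock genes, a response known to follow loss of HSP90 function, 11 passed as positive, 0 passed as negative and 11 did not pass. That list was chosen with earlier results of these data known. The name of the comparison, with DMSO first, would usually mean the opposite, and under that reading every "fell" becomes "rose" while sizes and p-values stay. Of the markers of the line, VIM (mean level 298885), CD44 (134994) and NES (909) were detected in the authors' deposited table, and each fell (-0.46 ± 0.13, -0.38 ± 0.13 and -0.59 ± 0.15); relative to genes of like level, meaning the median of the same 1 of 10 groups by mean level, only NES passed (adjusted p = 0.0102). In the authors' deposited table GFAP (-0.56 ± 0.39) and OLIG2 (0.82 ± 0.33, adjusted p = 0.0790) did not pass. The part of these markers in the results was not tested. SOX2 and S100B, at 0.851 and 1.12 in the authors' deposited table, were near absent. Markers of liver and skeletal muscle, tissues that store much glycogen, had mean levels of at most 8.60 in the authors' deposited table. The blood cell marker PTPRC was near absent (2.28) and LCP1 rose (0.69 ± 0.15), and the epithelial markers EPCAM, CDH1 and KRT8 had levels of at most 93.7 and no call in the authors' deposited table.

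Sequence before the transcription start was available for 8 of the 9 genes, all but PPP1R3B, in RefSeq windows of GRCh38.p14 that run from 250 bases before the start to 50 after it. The letters ACGTG, the core of the hypoxia response element, were searched on both strands, on which they read ACGTG or CACGT. The 250 bases before the start are shown for 3 genes that fell and hold the letters (PPP1R3C, GBE1 and UGP2), for the 2 that fell most and lack them there (PGM1 and GYS1), and for PPP1R3D, which holds them and did not pass the test. Capitals mark each match.
PPP1R3C (chr10:91633072-91633321, minus strand): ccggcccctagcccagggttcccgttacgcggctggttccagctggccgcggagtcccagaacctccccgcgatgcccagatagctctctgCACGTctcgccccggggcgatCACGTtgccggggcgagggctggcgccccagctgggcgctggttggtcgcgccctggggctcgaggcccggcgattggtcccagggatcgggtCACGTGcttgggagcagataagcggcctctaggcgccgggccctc
GBE1 (chr3:81761646-81761895, minus strand): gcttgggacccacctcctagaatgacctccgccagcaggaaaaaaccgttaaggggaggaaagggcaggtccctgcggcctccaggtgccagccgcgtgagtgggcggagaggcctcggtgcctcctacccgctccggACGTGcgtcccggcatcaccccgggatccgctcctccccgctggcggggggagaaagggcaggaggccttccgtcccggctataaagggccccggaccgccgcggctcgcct
UGP2 (chr2:63840719-63840968, plus strand): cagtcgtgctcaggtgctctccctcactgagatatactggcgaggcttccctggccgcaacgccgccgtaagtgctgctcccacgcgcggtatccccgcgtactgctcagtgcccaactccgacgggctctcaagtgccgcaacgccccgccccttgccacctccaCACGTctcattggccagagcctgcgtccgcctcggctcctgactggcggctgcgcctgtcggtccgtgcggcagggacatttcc
PGM1 (chr1:63593161-63593410, plus strand): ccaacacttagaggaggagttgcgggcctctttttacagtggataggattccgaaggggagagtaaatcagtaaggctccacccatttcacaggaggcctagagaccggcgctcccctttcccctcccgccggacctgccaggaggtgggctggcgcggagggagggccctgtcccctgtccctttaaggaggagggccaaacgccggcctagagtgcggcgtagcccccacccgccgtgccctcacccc
GYS1 (chr19:48993310-48993559, minus strand): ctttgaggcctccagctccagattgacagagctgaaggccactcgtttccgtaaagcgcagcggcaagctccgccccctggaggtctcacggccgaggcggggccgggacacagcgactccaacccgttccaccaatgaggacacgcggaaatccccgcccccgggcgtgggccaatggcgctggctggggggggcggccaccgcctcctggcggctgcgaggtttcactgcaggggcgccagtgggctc
PPP1R3D (chr20:59940306-59940555, minus strand): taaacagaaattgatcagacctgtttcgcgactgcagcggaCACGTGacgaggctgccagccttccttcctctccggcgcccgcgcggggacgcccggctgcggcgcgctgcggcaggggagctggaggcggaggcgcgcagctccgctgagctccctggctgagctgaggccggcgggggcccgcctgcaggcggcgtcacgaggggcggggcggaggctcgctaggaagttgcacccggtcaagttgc

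PPP1R3C had matches at 3 places, the first bases of which lay 159, 138 and 45 bases before the start. The last of these, in CACGTG, matches on both strands and is also an E-box, the site of basic helix-loop-helix factors. PPP1R3D had 1 such CACGTG, beginning 209 bases before its start. The matches of GBE1 and UGP2 began 112 and 84 bases before the start. PGM1 and UGP2 have more than 1 annotated start, and the first of each is shown. A window at another PGM1 start held 1 match. The windows at a further PGM1 start and at the other UGP2 start held 0. PYGL and PYGB held none. In all, 5 of the 8 genes had the letters in at least 1 window, as did 32.1% of the 10435 tested genes with a window, and of all 35116 windows 21.4% held them. The NFAT core GGAAA, also on both strands, was in 5 of the 8 genes (66.4% of tested genes), and the heat shock element core GAANNTTC in 0 of 8 (6.90%). These are matches of letters, and whether a factor binds there was not measured.

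Of the 9 genes, the 4 placed under synthesis all fell with YZ129. So did 1 of the 2 phosphorylases and 2 of the 3 PP1 targeting subunits among the 9. GYG1, the primer of synthesis and outside the 9, did not pass (-0.25 ± 0.14, adjusted p = 0.257), and other genes of these roles are given below. In total 7 of 9 passed an adjusted p of 0.05 in the direction of lower expression and 0 in the other, where the authors' deposited table has 7.64% of all 14812 tested genes lower and 5.24% higher. The median log2 change of the 9 genes was -0.64, beside -0.05 for all tested genes. All 9 values were negative, ranging from -1.20 to -0.19, as were those of 8302 of the 14812 tested genes. The table thus has more genes lower than higher (1132 against 776), and with each change taken relative to genes of like mean level the split was 804 against 920; of the 9 genes, 6 then fell and 0 rose, where 5.43% of tested genes fell. In bulk RNA, less transcript per cell and fewer cells holding it cannot be told apart.

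**Figure D1:**
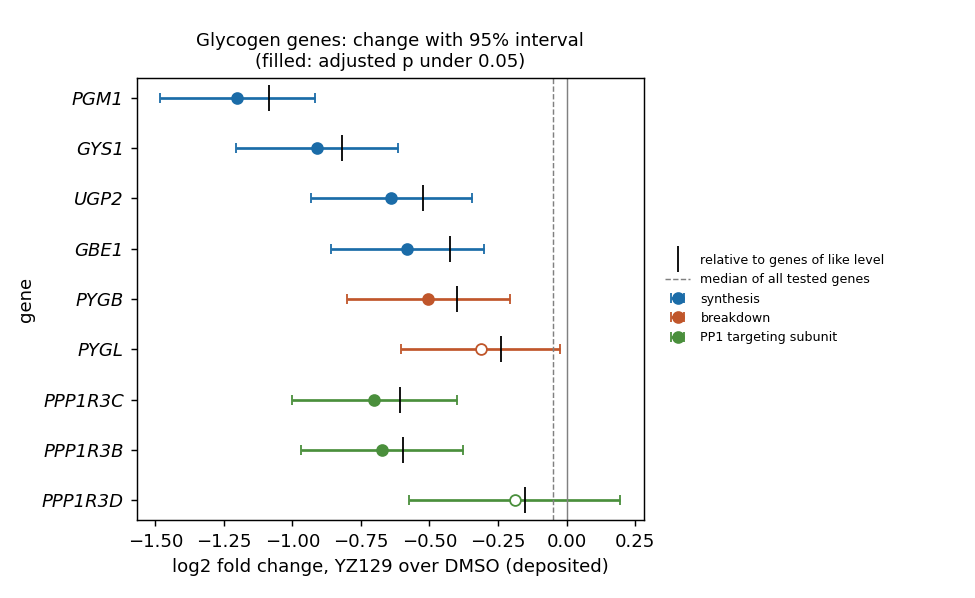
Deposited log2 fold change of each glycogen gene (YZ129 over DMSO, horizontal axis) with its 95% interval, coloured by role. Filled points passed an adjusted p of 0.05 (7 of 9), black ticks show the change relative to genes of like mean level, and the dashed line is the median of all tested genes at -0.05. PGM1 lies farthest from 0, and the interval of PPP1R3D spans 0.

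PGM1, which sits where glycogen and glycolysis part, had the largest change of the 9. Its log2 change in the authors' deposited table was -1.20 ± 0.14 (SE), or 43.5% of the DMSO level, with an adjusted p of 1.92e-14. Only 0.851% of tested genes had a lower value, which put PGM1 at rank 127 from the bottom. It was also the 1 gene of the 9 that passed a test against a change of 0.5 in size (adjusted p = 0.000192), which 0.797% of tested genes passed as lower.

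Glycogen synthase followed. GYS1 encodes the form found in muscle and most other tissues, and in the authors' deposited table it changed by -0.91 ± 0.15 (adjusted p = 1.26e-07), to 53.2% of the DMSO level. UGP2, which supplies UDP-glucose, fell by 0.64 on the log2 scale (SE 0.15, adjusted p = 0.000517) in the authors' deposited table. GBE1, with a mean level of 10276, changed by -0.58 ± 0.14 (adjusted p = 0.00103) in the authors' deposited table. These are 64.2% and 66.9% of the DMSO level.

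Between neighbouring steps, PGM1 fell more than UGP2. The difference of their log2 changes was -0.56 (95% interval -0.97 to -0.15), with the errors of the 2 genes taken as independent. GYS1 and GBE1 differed by -0.33, with an interval of -0.74 to 0.08 that holds 0. Of 6 such pairs compared among the 9 genes, 2 had intervals that leave out 0; the intervals are not adjusted for the number of pairs.

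One of the phosphorylases passed the test. PYGB, the form of brain and many other tissues, stood at -0.50 ± 0.15 (adjusted p = 0.0111) in the authors' deposited table, or 70.5% of the DMSO level. PYGL, the liver form, stood at -0.31 ± 0.15 in the authors' deposited table and did not pass (p = 0.0340, adjusted p = 0.154). The 2 isozymes are not shown to differ: PYGL minus PYGB was 0.19, with an interval of -0.22 to 0.61. The PYGB call was lost when changes were taken relative to genes of like level (-0.40, adjusted p = 0.0664) and at an adjusted p of 0.01. PYGM, the muscle phosphorylase, is listed in the authors' deposited table at a mean level of only 6.36, with no adjusted p.

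Of the targeting subunits, PPP1R3C and PPP1R3B fell. PPP1R3C, also called PTG, changed in the authors' deposited table by -0.70 ± 0.15 (adjusted p = 0.000155), and PPP1R3B, the subunit best known from liver, by -0.67 ± 0.15 (adjusted p = 0.000239). These are 61.5% and 62.7% of the DMSO level. Their difference was -0.03, with an interval of -0.45 to 0.39, which leaves room for a difference in either direction.

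PPP1R3D, the remaining targeting subunit among the 9 genes, did not pass. Its change in the authors' deposited table was -0.19 ± 0.20 (adjusted p = 0.600), at a mean level of 328, and its SE was the largest of the 9. PPP1R3C minus PPP1R3D was -0.51 (interval -1.0 to -0.02), and relative to genes of like level it was -0.46, with an interval of -0.95 to 0.03. PPP1R3B minus PPP1R3D was -0.48 (interval -0.97 to 0.00333).

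Among all tested genes, the 7 genes that fell lay in the lowest part of the distribution. This largely follows from the call, which was made on the same changes. The share of tested genes with a lower log2 change was 1.81% for GYS1, 3.67% for PPP1R3C, 4.13% for PPP1R3B and 4.64% for UGP2 in the authors' deposited table. It was 5.79% for GBE1 and 7.98% for PYGB there, against 19.1% for PYGL and 32.1% for PPP1R3D. Among the genes of like mean level the median change lay between -0.16 and -0.04 in the authors' deposited table. Taken relative to it, the 9 changes ranged from -1.08 to -0.15.

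**Figure D2:**
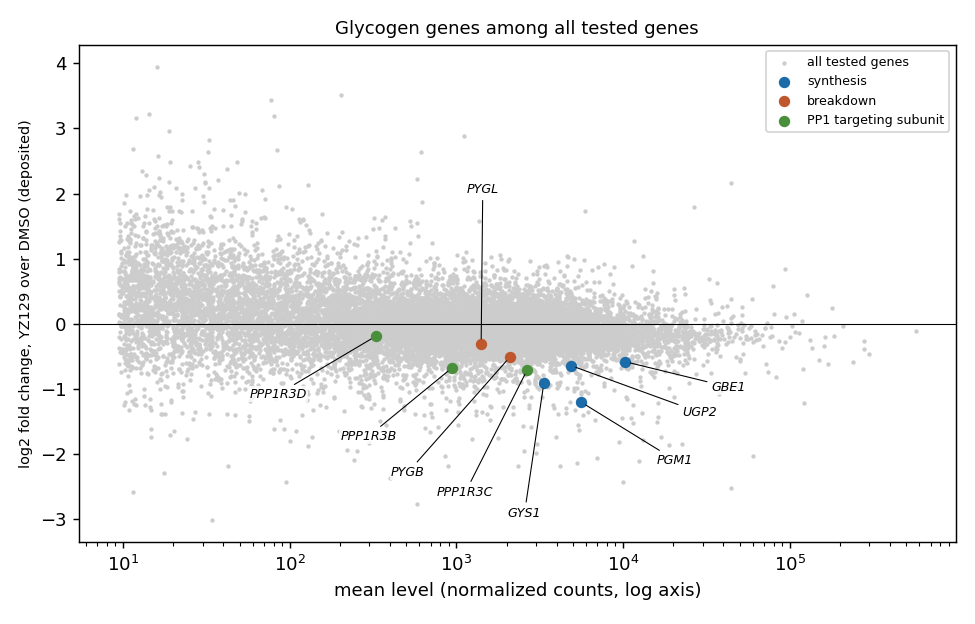
Deposited log2 fold change (YZ129 over DMSO, vertical axis) against mean level in normalized counts (log axis) for all 14812 tested genes in grey, with the 9 glycogen genes coloured by role. PGM1, at -1.20, and GYS1, at -0.91, lie under the dense grey band, while PYGL and PPP1R3D lie within it.

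The rest of the pathway was read from lists of 68 further genes, of which 58 were tested. Of these 6 fell, 1 rose and 51 did not pass, with a median of -0.22, beside 7.64% lower and 5.24% higher among all tested genes, so the falls were near that background. Relative to genes of like level 5 fell and 3 rose, beside 5.43% lower and 6.21% higher among all tested genes, which is near that background. Of the 6 falls, 4 were in glucose entry and the use of glucose 6-phosphate. The lists held 4 further tested genes under synthesis, GYG1 and the mutases PGM2, PGM2L1 and PGM3, and 6 under breakdown. Of the mutases, PGM2 and PGM3 act mainly on other sugars. In the authors' deposited table, whose columns are those of DESeq2, 0 of the 4 and 0 of the 6 passed. At an unadjusted p of 0.05 there were 0 and 1. As 12.9% of all tested genes passed in either direction, 0 calls among so few genes is near that share.

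Glycogenin GYG1, the protein primer on which a particle starts, had -0.25 ± 0.14 (adjusted p = 0.257) in the authors' deposited table. GYS1 minus GYG1 was -0.66 (interval -1.07 to -0.26), a pair chosen after the values were seen. PGM3, a related mutase that acts on N-acetylglucosamine phosphate, had 0.13 ± 0.15 and PGM2, which acts mainly on pentose phosphates, 0.01 ± 0.17 in the authors' deposited table. PGM1 minus PGM2, also chosen after the values were seen, was -1.21 (interval -1.65 to -0.78). PHKB, a regulatory subunit of the kinase that activates phosphorylase, stood in the authors' deposited table at -0.25 ± 0.14 (adjusted p = 0.251), and PHKG2, a catalytic subunit of that kinase, at -0.08 ± 0.16.

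The phosphatase and kinases that act on glycogen synthase gave 1 call. Among 7 other PP1 genes 0 passed in the authors' deposited table with DESeq2 columns. At an unadjusted p of 0.05 there were 2, where 3694 of all 14812 tested genes passed. All 7 values were negative, with a median of -0.32, and 8302 of the 14812 tested genes were negative too. The catalytic subunits PPP1CA (-0.38 ± 0.15, adjusted p = 0.0744) and PPP1CB (-0.51 ± 0.40, adjusted p = 0.455) in the authors' deposited table are among the 7. So are the further targeting subunits PPP1R3E (-0.28 ± 0.21), PPP1R3F (-0.06 ± 0.22) and PPP1R3G (-0.72 ± 0.35, adjusted p = 0.164) there. PPP1R3G had a mean level of 62.9, and these 3 were named after their values were seen. Of 18 kinase genes, which include GSK3, casein kinase, AMPK, PKA and AKT subunits, 1 rose and 17 did not pass, with a median of -0.20. As 7.64% of all tested genes fell and 5.24% rose, the calls in both lists are near that background. The kinase gene that rose was PRKAB2, an AMPK subunit with a glycogen-binding domain, at 0.64 ± 0.16 (adjusted p = 0.00201) in the authors' deposited table. PRKAB1, the other AMPK subunit of this type, had 0.09 ± 0.15 there (adjusted p = 0.771) and did not pass. CSNK1A1 (0.02 ± 0.16) and AKT1 (-0.23 ± 0.15) in the authors' deposited table did not pass.

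Among 5 genes of glycogen quality control and delivery to autophagosomes 1 fell, the autophagy protein GABARAP (-0.54 ± 0.14, adjusted p = 0.00242 in the authors' deposited table). Its relative GABARAPL1, which binds the glycogen adaptor STBD1, stood in the authors' deposited table at 0.41 ± 0.17 (adjusted p = 0.105) and WDR45 at 0.16 ± 0.15. The median of these 5 was 0.14. As 7.64% of all tested genes fell, 1 fall among so few genes is near that share. Relative to genes of like level the GABARAP call was lost (adjusted p = 0.056) and GABARAPL1 passed (adjusted p = 0.0369).

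Of 9 genes of UDP-sugars and galactose use, galactokinase GALK1 alone passed, and the median was -0.22. With 7.64% of all tested genes lower, 1 fall among 9 is near the background. In the authors' deposited table GALK1 stood at -0.63 ± 0.17 (adjusted p = 0.00470). UGDH, which oxidises UDP-glucose, had 0.17 ± 0.15, and UGGT1, which places glucose on misfolded glycoproteins, -0.27 ± 0.13 in the authors' deposited table.

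Upstream, 4 of 9 genes of glucose entry and glucose 6-phosphate fell and 0 rose, with a median of -0.31, where 7.64% of all tested genes fell. The hexokinase HKDC1 had the other sign in the authors' deposited table, at 0.41 ± 0.16 (adjusted p = 0.0592), and passed as higher relative to genes of like level (adjusted p = 0.0207) and at an adjusted p of 0.1; it was named after its value was seen. SLC2A1, the glucose transporter GLUT1, changed by -1.81 ± 0.14 (adjusted p = 1.21e-37) in the authors' deposited table. Hexokinase HK2 had -0.76 ± 0.13 and GPI, which carries glucose 6-phosphate into glycolysis, -0.72 ± 0.16 in the authors' deposited table. SLC37A4, which brings glucose 6-phosphate into the endoplasmic reticulum, had -0.59 ± 0.21 in the authors' deposited table and passed narrowly (adjusted p = 0.0473), but not when adjusted over every gene or at 0.01. HK1 (-0.26 ± 0.15) and the transporter SLC2A3 (-0.31 ± 0.13) in the authors' deposited table did not pass.

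**Figure D3:**
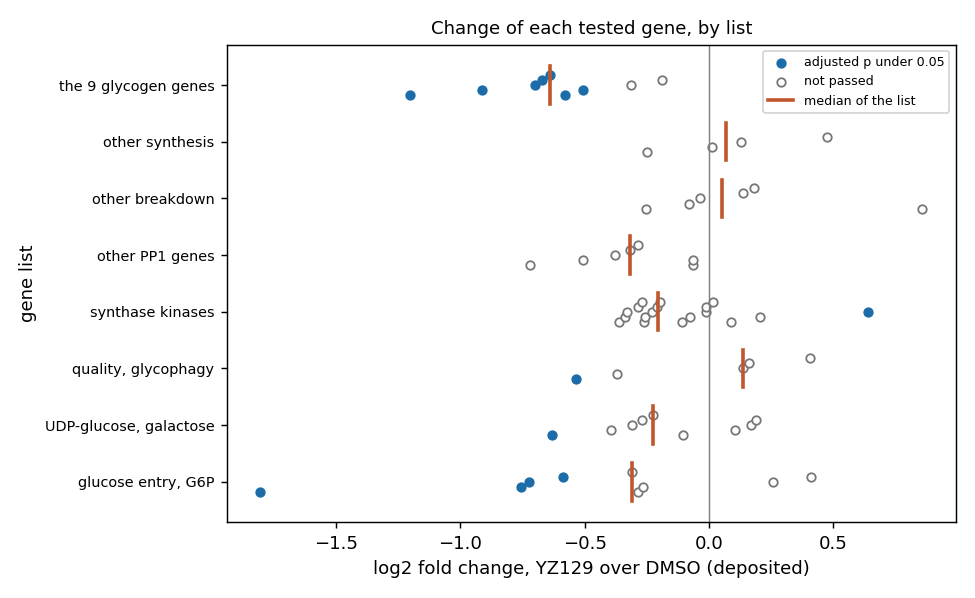
Deposited log2 fold change (YZ129 over DMSO, horizontal axis) of every tested gene of the 9 glycogen genes and of 7 lists from the rest of the pathway, 1 point per gene. Filled points passed an adjusted p of 0.05 and bars are list medians; the median was -0.64 for the 9 glycogen genes and between -0.32 and 0.14 for the other lists.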

How the data were processed

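Poly(A) RNA of 4 U87 libraries, grouped by title, was sequenced. Tools listed in the submitters' processing notes, with no role stated, are Cuffdiff, Cufflinks 2.2.1 and TopHat2 2.0.12, and the build is hg19. Column names, per the file headers, match DESeq2 output. The authors deposited, for 19749 genes, a mean signal (read counts over size factors), a log2 fold change with SE, a Wald score, a p-value and a Benjamini-Hochberg adjusted p-value; 4937 low genes (25.0%) had no adjusted p and were left out of tests.

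The lowest mean levels were sums of 8 read steps, which gave 525 of 525 genes with 2 reads (tolerance 1e-07). Fold changes had been moderated towards 0: 2 reads in 1 library gave at most 0.55 in size, so folds of low genes are understated. Depth in reads is unknown.

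A call is the authors' adjusted p under 0.05. Genes of like level are those of the same 1 of 10 level groups, and intervals are normal. Named were all 9 genes and, per further list, every called gene and the 2 most abundant others. PGM2, PGM2L1, PYGM, HKDC1, PHKG1, PRKAA1, PRKAA2, PRKAB1, PPP1R2, PPP1R3E, PPP1R3F, PPP1R3G and the markers were added afterwards. Some listed genes are not reported here. The 9 genes and the lists were chosen with earlier results of these data known. Calls were recomputed with Python 3.11.15 and scipy 1.17.1 and checked on simulated data.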

Additional observations from a re-analysis of the deposited data

How the results depend on the processing

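The table has no values per library, so no library could be left out and nothing could be refitted. No paired analysis was possible because the deposited table holds only the comparison. Of the 9 glycogen genes 6 were called at an adjusted p of 0.01 (background 4.71% lower), 7 at 0.1 (10.2%), 7 when adjusted over every gene (5.18%) and 6 relative to genes of like level (5.43%), all lower. Tested against a change of 0.5, 1 of the 9 was called (0.797% of tested genes lower), and 1 of the further genes in place of 7. With a log2 change of at least 1 also required, 1 of the 9 was called (1.17%); both times it was PGM1. The median of -0.64 was -0.63 as a mean, -0.66 weighted by the SE and -0.52 relative to genes of like level. PPP1R3C minus PPP1R3D became -0.46 relative to genes of like level, with an interval that holds 0.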

Other observations

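Several regulators of glycogen metabolism had standard errors above those of most genes of like mean level and larger than those of the 9 glycogen genes. In the authors' deposited table PPP1CB, a catalytic subunit of PP1 with a mean level of 13520, had an SE of 0.40, larger than that of 97.8% of genes of like level, whose median SE was 0.15. PRKAA2, a catalytic subunit of AMPK, had an SE of 0.46 in the authors' deposited table, larger than 98.3% of its level group. PRKAA1, the other catalytic subunit, and PPP1R2, an inhibitor of PP1, had SEs of 0.24 and 0.25 in the authors' deposited table, each larger than 97.4% of their groups. The 9 glycogen genes themselves had SEs between 0.14 and 0.20. These genes were picked out after their values were seen.

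PYGM, the muscle phosphorylase, had the opposite sign to PYGB and PYGL. Its deposited log2 change was 2.02 ± 0.75 at a mean level of 6.36 (unadjusted p = 0.00692), and the authors' deposited table gives it no adjusted p. PHKG1, the muscle form of the catalytic subunit of phosphorylase kinase, had 0.86 ± 0.37 at a mean level of 49.1 (adjusted p = 0.112) in the authors' deposited table. Tested genes with a mean level under 100 had a median change of 0.24, beside -0.11 for those of at least 1000.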
